A study of Mus musculus with 8 samples.

Results

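Pramel6, Pramel7, Nlrp4f, Zscan4c and Crxos are 5 mouse genes known for transcripts that are abundant before or around implantation and that can also be found in embryonic stem cells. They were followed here in stem cell lines mutated at Gtf2i or at Hprt. They were chosen by name, with earlier results of these same arrays in view, so their differences between the lines are given as descriptions without a test. A gene was read from a probe set (a group of short array probes for a transcript) annotated to that gene alone. Of the 5 genes, 4 had such probe sets, 7 in all, out of 18193 genes on the array. All 4 measured genes were among the 13819 genes that passed a filter on dim probe sets. Zscan4c had no probe set of its own and is not described among the measured genes.

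Total RNA was measured on 8 Affymetrix arrays in 4 groups of 2. The exon 2 mutant, made in R1 stem cells by gene targeting, had genotype Δexon2/+, with exon 2 of Gtf2i deleted on an allele. The trap line was a gene trap of AB2.2 stem cells with genotype HPRT -/-:GTF2I +/-. The Hprt knockout had genotype HPRT -/-. The labels of the wild-type group gave no mutation and did not name its line. The labels gave the same culture for all groups, with leukaemia inhibitory factor (LIF), serum replacement and a feeder layer. The labels did not give the number of clones, did not say that both arrays of a group came from separate cultures, and gave no batch. P-values below therefore measure only the spread between these arrays, and a difference of line, batch or background cannot be told apart from the mutation.

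Pramel6 and Pramel7 belong to the Prame family of leucine-rich repeat proteins. PRAMEL7 is known in mouse embryonic stem cells for targeting UHRF1, the cofactor of maintenance DNA methylation, for degradation, and as a gene induced by LIF through STAT3. Nlrp4f belongs to the NLRP family, many members of which are stored in the oocyte and needed by the early embryo. Crxos lies opposite the homeobox gene Crx and encodes homeodomain proteins that are made in stem cells and preimplantation embryos. Gtf2i encodes TFII-I, a transcription factor known to bind initiator and E-box sequences, and Hprt encodes a purine salvage enzyme.

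Since E-boxes are among the sequences that TFII-I is known to bind, the 250 bases before the start of each measured gene were read from RefSeq's promoter table on GRCm38.p6. The sequences run 5′ to 3′ along the gene, and capitals mark each E-box, searched as CANNTG, which reads the same on both strands. For Crxos, which has 3 annotated starts, the first is shown. Windows lie at chr2:87492419-87492668 on the minus strand for Pramel7, chr2:87506315-87506564 on the plus strand for Pramel6, chr13:65205717-65205966 on the minus strand for Nlrp4f and chr7:15882367-15882616 on the plus strand for Crxos.
Pramel7: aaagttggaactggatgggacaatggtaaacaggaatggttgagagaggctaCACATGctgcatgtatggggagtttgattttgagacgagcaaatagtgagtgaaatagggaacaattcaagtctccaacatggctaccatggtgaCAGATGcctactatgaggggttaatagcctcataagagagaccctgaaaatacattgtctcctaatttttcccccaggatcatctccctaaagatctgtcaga
Pramel6: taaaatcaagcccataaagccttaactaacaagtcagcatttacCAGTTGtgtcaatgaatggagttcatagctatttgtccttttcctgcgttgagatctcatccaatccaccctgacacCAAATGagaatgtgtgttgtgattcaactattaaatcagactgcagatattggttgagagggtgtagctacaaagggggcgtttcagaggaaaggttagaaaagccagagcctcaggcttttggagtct
Nlrp4f: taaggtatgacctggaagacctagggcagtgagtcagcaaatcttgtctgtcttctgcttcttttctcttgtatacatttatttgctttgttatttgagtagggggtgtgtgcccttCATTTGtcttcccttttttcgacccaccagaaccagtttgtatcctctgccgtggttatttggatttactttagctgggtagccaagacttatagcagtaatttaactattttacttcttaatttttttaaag
Crxos: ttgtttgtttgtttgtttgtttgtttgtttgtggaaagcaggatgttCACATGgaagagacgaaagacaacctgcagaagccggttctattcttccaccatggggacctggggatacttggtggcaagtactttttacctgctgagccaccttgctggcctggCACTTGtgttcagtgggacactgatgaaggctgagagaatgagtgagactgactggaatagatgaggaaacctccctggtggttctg

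Pramel7 and Pramel6 sit close together on chromosome 2, and their windows each held 2 E-boxes. In Pramel7 these were CACATG, beginning 198 bases before the start, and CAGATG, beginning 103 bases before it. In Pramel6 they were CAGTTG at 206 bases and CAAATG at 129 bases, so the neighbours did not share an E-box of the same letters. Nlrp4f held CATTTG at 133 bases. The first Crxos window held CACATG at 203 bases and CACTTG at 87 bases. An E-box is common in windows of this length and was present in 66.2% of all 32851 promoter windows. The stricter form CACGTG, in 6.02% of windows, was found in none of the 4 printed here. The palindrome TTCNNNGAA that STAT proteins are known to bind was in 7.02% of windows. Among the windows of the measured genes it was found only at the third start of Crxos, as TTCCTGGAA. Bases C and G made up 43.2% of the Pramel7 window, 42.0% of Pramel6, 38.4% of Nlrp4f and 48.0% of the first Crxos window, all under the median of 52.4% over all windows. The windows at the other Crxos starts held 53.2%, above that median, and 51.6%.

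Values are normalized log2 intensities, on which a difference of 1 is a doubling and the mean filter level was 5.35. Feeder fibroblast markers differed sharply between the lines. Summed over 19 markers on the linear scale, they gave 101815 to 103390 in the exon 2 mutant, 106630 to 107088 in the trap line, 6249 to 6542 in the Hprt knockout and 140915 to 141481 in wild-type, although the labels give feeder culture for every line. In the Hprt knockout 18 of the 19 markers still lay above the filter level. All 9 stem cell markers were above it in each group, and their sum was 62965 to 65806 in the exon 2 mutant, 62044 to 63703 in the trap line, 68699 to 70589 in the Hprt knockout and 53516 to 54177 in wild-type. In bulk RNA, fewer cells of a type and less RNA per cell cannot be told apart. The part of the feeder signal in the results below was not tested. Hprt averaged 12.25 in the exon 2 mutant, 10.74 in the trap line, 10.04 in the Hprt knockout and 12.08 in wild-type. On its brightest probe set Gtf2i averaged 10.09 in the trap line, 10.90 in the Hprt knockout, 10.48 in the exon 2 mutant and 10.12 in wild-type. The trap and wild-type arrays overlapped on it. Another probe set, above the filter level on all 8 arrays, averaged 7.92, 9.1, 8.41 and 7.77 in that order. The other Gtf2i probe sets were under that level on every array. The sources used here do not say whether these probe sets cover exon 2, so their values do not check the exon 2 label.

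Pramel6 was brightest in the trap line and dimmest in the exon 2 mutant. It read 7.50 and 7.19 in the exon 2 mutant, 9.37 and 9.33 in the trap line, 7.99 and 8.03 in the Hprt knockout, and 8.81 and 8.99 in wild-type. The order was trap, wild-type, Hprt knockout and exon 2 mutant, and no 2 neighbours in it overlapped. A second, dimmer Pramel6 probe set gave the same order, with 5.47 and 5.52 in the exon 2 mutant, 6.67 and 6.76 in the trap line, 5.95 and 5.96 in the Hprt knockout, and 6.43 and 6.18 in wild-type. The brighter probe set is of a type that can match more than 1 transcript, so RNA of a close relative could be read by it. Over the 8 arrays the 2 probe sets correlated at 0.96.

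Pramel7 was brightest in wild-type cells, and both its probe sets were above the filter level on all 8 arrays. It read 6.34 and 6.41 in the exon 2 mutant, 6.87 and 7.08 in the trap line, 6.65 and 6.52 in the Hprt knockout, and 8.37 and 8.66 in wild-type. The 3 mutated lines lay within 1 log2 unit of each other and wild-type stood above all of them. Arrays of the trap line and of the Hprt knockout did not overlap, and the Hprt knockout and the exon 2 mutant were separated by a difference of means of only 0.21. The second Pramel7 probe set read 6.13 and 6.02 in the exon 2 mutant, 6.25 and 6.28 in the trap line, 6.10 and 6.09 in the Hprt knockout, and 7.04 and 6.90 in wild-type. On it the Hprt knockout and exon 2 arrays overlapped, while wild-type again stood above every other array. The brighter Pramel7 probe set, too, is of the type that can match several transcripts, and its correlation with the other was 0.976.

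Nlrp4f split the lines with and without the Hprt mutation. It read 6.95 and 6.89 in the exon 2 mutant, 8.62 and 8.71 in the trap line, 9.11 and 9.14 in the Hprt knockout, and 6.29 and 6.47 in wild-type. Both groups with HPRT -/- in the genotype lay at 8.62 or above, and both groups without it at 6.95 or below. The share of all tested genes that split the lines in these pairs was not counted. The order was Hprt knockout, trap, exon 2 mutant and wild-type, with gaps between neighbouring means of 0.46, 1.75 and 0.53 and no overlap. The gene had a single probe set, so no second reading was at hand.

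Crxos separated the lines with and without the Gtf2i mutation. It read 9.03 and 9.02 in the exon 2 mutant, 8.86 and 8.90 in the trap line, 7.84 and 7.71 in the Hprt knockout, and 7.68 and 7.87 in wild-type. The Hprt knockout and wild-type arrays overlapped, and both lay below the Gtf2i-mutated lines. How many of all tested genes split the lines in this way was not counted. A second Crxos probe set was near the filter level and above it on 2 arrays, with 5.11 and 5.29 in the exon 2 mutant, 5.74 and 5.48 in the trap line, 4.85 and 5.27 in the Hprt knockout, and 5.20 and 5.03 in wild-type. On that probe set only the trap line stood apart. Crx, the retinal homeobox gene on the opposite strand, averaged 5.27 in the exon 2 mutant, 5.10 in the trap line, 5.26 in the Hprt knockout and 5.36 in wild-type, close to or under the filter level.

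**Figure D1:**
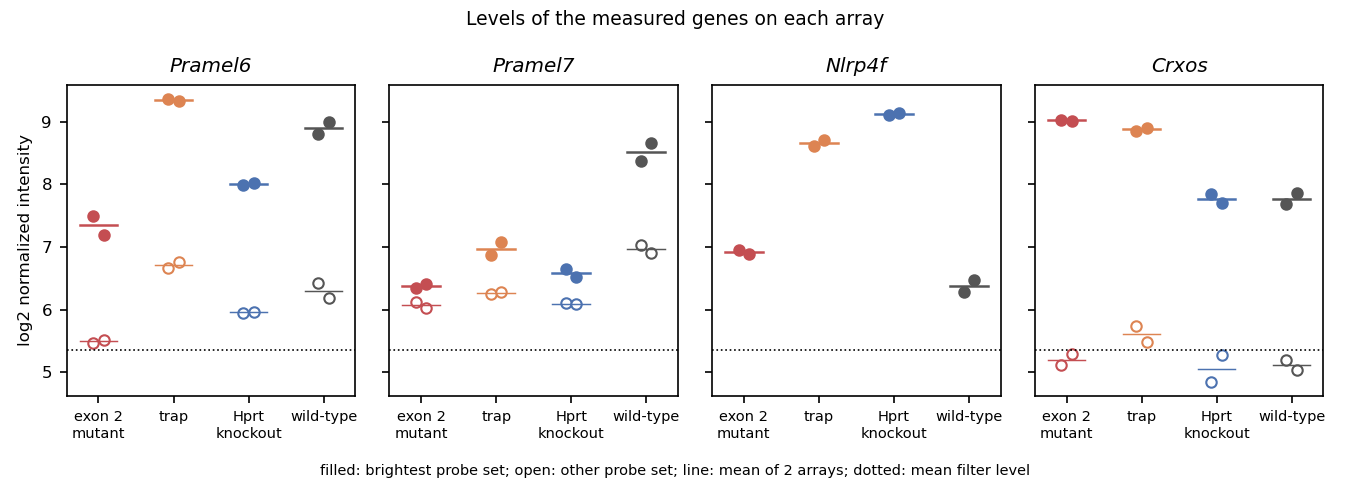
Normalized log2 intensity (vertical axis) of the 4 measured genes on each of the 8 arrays, by line. Filled points are the brightest probe set, open points the other probe set where there is one, short lines the mean of 2 arrays and the dotted line the mean filter level of 5.35. Pramel7 stands highest in wild-type, Nlrp4f in the trap line and the Hprt knockout, and Crxos in the exon 2 mutant and the trap line.

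In the exon 2 mutant the Prame genes were lower and the other measured genes higher than in wild-type. Pramel7 averaged 6.38 ± 0.0491 in the exon 2 mutant and 8.51 ± 0.205 in wild-type (SD, n = 2 each), a difference of -2.13 ± 0.114 (SE), or 4.39-fold lower. Pramel6 averaged 7.35 ± 0.216 in the exon 2 mutant and 8.90 ± 0.128 in wild-type, a difference of -1.56 ± 0.107, or 2.94-fold lower. Only 0.297% of all tested genes had a lower difference than Pramel7 and 0.731% a lower one than Pramel6, which places both near the bottom of this comparison. Crxos averaged 9.02 ± 0.00761 in the exon 2 mutant and 7.78 ± 0.134 in wild-type, a difference of 1.25 ± 0.0771, or 2.38-fold higher. Nlrp4f averaged 6.92 ± 0.0423 in the exon 2 mutant and 6.38 ± 0.124 in wild-type, a difference of 0.53 ± 0.0719, or 1.45-fold higher. The share of tested genes with a lower difference was 98.6% for Crxos and 87.5% for Nlrp4f. The arrays of both lines did not overlap for 4 of 4 genes, 2 higher and 2 lower. Neither did they for 77.2% of all tested genes (42.7% higher, 34.4% lower), so non-overlap by itself is the usual state of a gene here. The second probe sets gave -0.90 ± 0.0752 for Pramel7 and -0.81 ± 0.0943 for Pramel6, smaller in size. The dim second probe set of Crxos gave 0.08 ± 0.16, and with the mean of its probe sets Crxos stood at 0.67. Set against the 9 stem cell markers, a scaling chosen after seeing the data, Nlrp4f differed by 0.18. Of 19 feeder markers 18 fell in the exon 2 mutant, with a median of -0.48 over the list, and 0 rose by limma, also at an unadjusted p under 0.05.

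The trap line and the Hprt knockout share the label HPRT -/- and differ in it at Gtf2i. Pramel6 and Crxos were the genes that differed most between them. Pramel6 averaged 9.35 ± 0.0293 in the trap line and 8.01 ± 0.0267 in the Hprt knockout, a difference of 1.34 ± 0.107, or 2.54-fold higher. Crxos averaged 8.88 ± 0.0306 in the trap line and 7.77 ± 0.0902 in the Hprt knockout, a difference of 1.11 ± 0.0771, or 2.15-fold higher. Pramel7 differed less, with means of 6.97 ± 0.148 in the trap line and 6.59 ± 0.0941 in the Hprt knockout and a difference of 0.39 ± 0.114. Nlrp4f was lower, with means of 8.66 ± 0.0625 in the trap line and 9.12 ± 0.023 in the Hprt knockout and a difference of -0.46 ± 0.0719, or 1.38-fold lower. Under cyclic loess scaling the Nlrp4f difference was -0.30. Here 92.2% of tested genes had a lower difference than Pramel6, 90.6% than Crxos, 79.6% than Pramel7 and 23.3% than Nlrp4f. The arrays did not overlap for 4 of 4 genes, 3 higher and 1 lower, against 85.2% of all tested genes (32.5% higher, 52.7% lower). All 19 feeder markers rose in the trap line relative to the Hprt knockout, with a median difference of 4.19, so this is also the comparison with the widest gap in feeder signal beside that of the Hprt knockout with wild-type.

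The Hprt knockout differed from wild-type chiefly at Nlrp4f and Pramel7. Nlrp4f was 6.69-fold higher, a difference of 2.74 ± 0.0719, above that of 99.8% of tested genes. Pramel7 was 3.80-fold lower, a difference of -1.92 ± 0.114, with 5.54% of tested genes lower still. Pramel6 was 1.85-fold lower, a difference of -0.89 ± 0.107, with 11.9% of tested genes lower. Crxos differed by 0.00 ± 0.0771, its arrays in the 2 groups overlapped, and the value was -0.26 under cyclic loess scaling and -0.42 relative to the stem cell markers. Non-overlap thus held for 3 of 4 genes, 1 higher and 2 lower, against 85.7% of tested genes (55.0% higher, 30.7% lower). All 19 feeder markers fell in the Hprt knockout, with a median of -4.71.

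The trap line was also set against wild-type, a comparison in which both groups carried the feeder signal. Nlrp4f was 4.87-fold higher, a difference of 2.28 ± 0.0719, with 99.9% of tested genes below it. Crxos was 2.15-fold higher, a difference of 1.10 ± 0.0771, with 98.8% of tested genes below it. Pramel7 was 2.90-fold lower, a difference of -1.54 ± 0.114, with 0.637% of tested genes lower. Pramel6 was 1.37-fold higher, a difference of 0.45 ± 0.107, and 0.15 when set against the stem cell markers. The arrays did not overlap for 4 of 4 genes, 3 higher and 1 lower, against 73.4% of tested genes (44.0% higher, 29.4% lower). Feeder markers gave 3 higher and 10 lower of 19, with a median of -0.36. The 3 comparisons with wild-type share its 2 arrays, so their values are not independent of each other. The same arrays therefore enter each of the low Pramel7 differences of -2.13 in the exon 2 mutant, -1.54 in the trap line and -1.92 in the Hprt knockout.

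**Figure D2:**
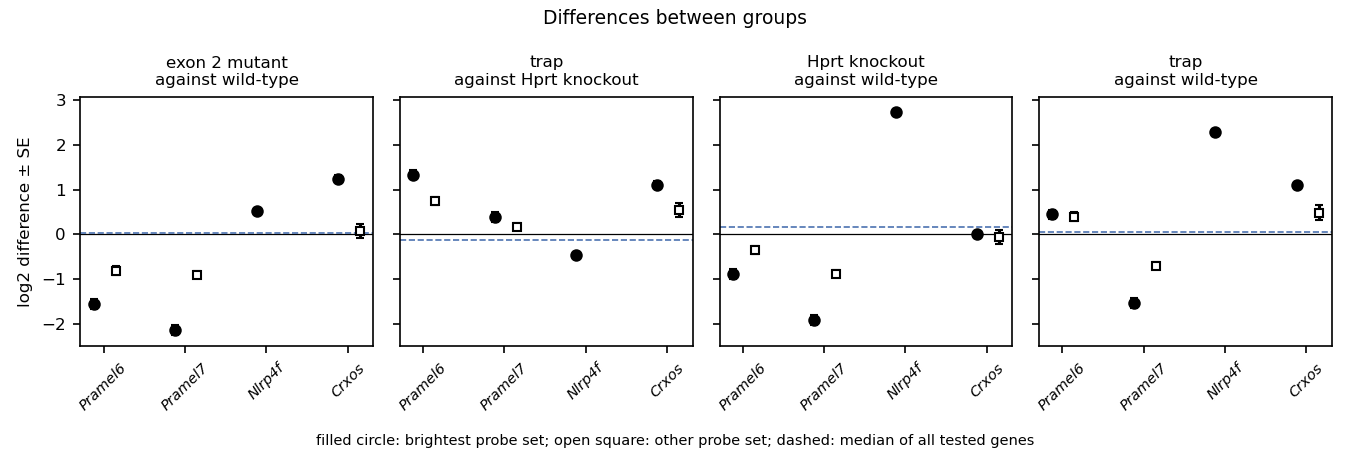
Difference in normalized log2 intensity (vertical axis, ± SE of the fit, n = 2 arrays a group) for each measured gene in the 4 comparisons. Filled circles are the brightest probe set, open squares the other, and the dashed line is the median of all tested genes, which lay between -0.13 and 0.16. Pramel6 lies below 0 in the exon 2 mutant (-1.56) and above it in the trap line against the Hprt knockout (1.34).

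The measured genes did not move as a unit. Over the 8 arrays, which fall in 4 levels of 2 arrays each, Pramel6 and Pramel7 correlated at 0.589. Nlrp4f correlated with Pramel7 at -0.551 and with Pramel6 at 0.15. Crxos correlated with Pramel7 at -0.525, with Pramel6 at -0.141 and with Nlrp4f at -0.029. These are descriptions of 8 arrays that share lines and, by their labels, culture. The median difference of the 4 genes was -0.51 in the exon 2 mutant against wild-type, 0.75 in the trap line against the Hprt knockout, -0.45 in the Hprt knockout against wild-type and 0.78 in the trap line against wild-type, and each of these medians averages over genes of opposite sign.

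The genes with the most similar levels over the 8 arrays were found by Pearson correlation among the tested genes. For Pramel6 these were Ifnar1, a subunit of the type I interferon receptor (r = 0.9918), Fuca1, a lysosomal fucosidase (0.9893), and Foxd3, a forkhead factor of pluripotent cells (0.9873). Foxd3 also spanned a range like that of Pramel6, with means of 6.87 in the exon 2 mutant, 8.69 in the trap line, 7.68 in the Hprt knockout and 8.40 in wild-type. For Pramel7 they were Fam98a (0.9952), Noct, the circadian factor nocturnin (0.9934), and Cfl2, a cofilin that severs actin filaments (0.9928). Noct averaged 10.44 in the exon 2 mutant, 10.84 in the trap line, 10.51 in the Hprt knockout and 11.91 in wild-type. For Nlrp4f they were Timm21, a subunit of the mitochondrial import machinery (0.9974), Akr1b10, an aldo-keto reductase (0.9965), and Sytl1, a synaptotagmin-like protein (0.9933). For Crxos they were Sh3gl2, an endophilin (0.9929), Tbx3, a T-box factor of the naive stem cell state (0.9904), and Epc2 (0.9889). Of the other tested genes 55 passed 0.95 for Pramel6, 69 for Pramel7, 144 for Nlrp4f and 44 for Crxos, or 0.398%, 0.499%, 1.04% and 0.318% of the tested genes in that order.

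**Figure D3:**
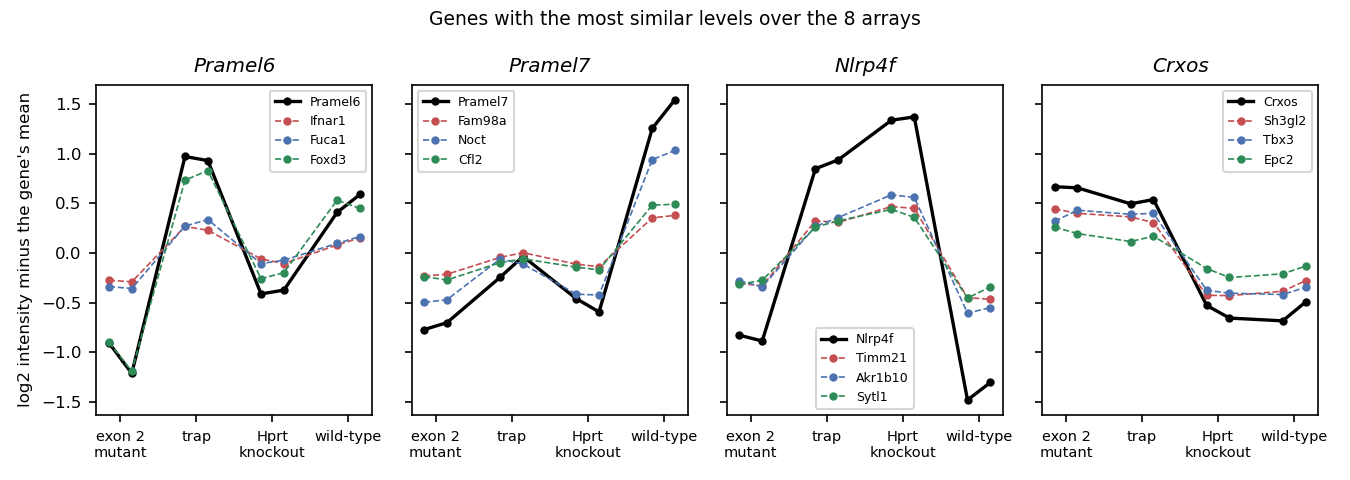
Normalized log2 intensity minus the gene's mean over the 8 arrays (vertical axis), for each measured gene (black) and the 3 genes whose levels correlated best with it, by array and line. Foxd3 follows Pramel6 in size as well as shape, while the genes paired with Nlrp4f span a smaller range than Nlrp4f does.

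Genes around the measured ones were read from 6 lists written from general knowledge, with 135 genes listed, 107 with a probe set and 79 tested. Differences in these lists were tested with limma across all 13819 genes, and a call is a Benjamini-Hochberg adjusted p under 0.05. Calls were frequent in general. In the exon 2 mutant against wild-type 32.5% of all tested genes rose and 23.1% fell, 55.5% in all. The trap line against the Hprt knockout gave 26.6% higher and 41.8% lower, 68.4% in all. The Hprt knockout against wild-type gave 46.4% higher and 25.1% lower, 71.5% in all, and the trap line against wild-type 26.5% higher and 14.6% lower, 41.1% in all. The larger direction depended on the scaling. Under cyclic loess the exon 2 mutant gave 26.5% higher and 29.3% lower against wild-type, and the trap line 34.1% higher and 30.5% lower against the Hprt knockout. Against wild-type the Hprt knockout then gave 33.1% higher and 35.5% lower, and the trap line 20.9% higher and 19.6% lower. The median difference of all tested genes was 0.03, -0.13, 0.16 and 0.05 in those 4 comparisons, and under cyclic loess scaling it was -0.03, 0.01, -0.02 and 0.00. Of the 79 genes, 45 rose and 9 fell in the exon 2 mutant, and 17 rose and 39 fell in the trap line against the Hprt knockout, or 23 and 33 under cyclic loess. In the Hprt knockout against wild-type 48 rose and 10 fell, or 37 and 17 under cyclic loess, and in the trap line against wild-type 29 rose and 7 fell.

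The other tested Prame genes had other orders of levels than Pramel6 and Pramel7. Of 12 relatives with a probe set 8 were dim and 4 were tested. Pramel13 read 7.73 and 7.53 in the exon 2 mutant, 7.87 and 7.88 in the trap line, 8.79 and 8.59 in the Hprt knockout, and 6.84 and 6.84 in wild-type, so it was lowest where Pramel7 was highest. Against wild-type Pramel13 rose in the exon 2 mutant (0.79 ± 0.0879, limma adjusted p = 0.00035). It also rose against wild-type in the trap line (1.03 ± 0.0879, adjusted p = 0.0002) and the Hprt knockout (1.84 ± 0.0879, adjusted p = 2.18e-06). The trap line had less of it than the Hprt knockout (-0.81 ± 0.0879, adjusted p = 0.000153). Pramel18 fell in the exon 2 mutant against wild-type (-0.39 ± 0.0608, adjusted p = 0.00163) and in the trap line against the Hprt knockout (-0.60 ± 0.0608, adjusted p = 0.000107). Against wild-type, the Hprt knockout had more of it (0.71 ± 0.0608, adjusted p = 3.82e-05). Pramel12 rose by 0.25 in the Hprt knockout relative to wild-type (adjusted p = 0.0154). That call ended under cyclic loess scaling, where the difference was -0.01 (adjusted p = 0.875). It ended too without the second Hprt knockout array (adjusted p = 0.0875) or the second wild-type array (adjusted p = 0.0752).

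Among NLRP and oocyte-to-embryo genes, the relatives of Nlrp4f and other stored maternal products, 15 of 24 with a probe set were tested. In the exon 2 mutant, where 32.5% of all tested genes rose and 23.1% fell, 6 rose and 0 fell on this list, with a median of 0.10. On the list 1 was lower at an unadjusted p under 0.05 and 1 fell under cyclic loess scaling. The largest changes were in Khdc3 (1.05 ± 0.0543, limma adjusted p = 1.88e-05) and Ooep (0.81 ± 0.0632, adjusted p = 8e-05), both parts of the subcortical maternal complex, and in Nlrp14 (0.70 ± 0.0848, adjusted p = 0.000514). In the Hprt knockout against wild-type, where Nlrp4f was highest, 8 rose and 0 fell, with a median of 0.32. Of all tested genes 46.4% rose and 25.1% fell there, with a median of 0.16. On the list 0 were lower at an unadjusted p under 0.05, but 1 fell under cyclic loess scaling. Zbed3, another part of that complex, rose by 1.54 ± 0.0696 (adjusted p = 1.68e-06), or 0.73 with the mean of its probe sets, and Nlrp14 by 1.46 ± 0.0848 (adjusted p = 5.69e-06). Figla, an oocyte transcription factor, and Nlrp9b are counted among these 8 but passed the filter only through the Hprt knockout arrays, where they were high. Figla averaged 4.97 in the exon 2 mutant, 5.12 in the trap line, 5.93 in the Hprt knockout and 5.07 in wild-type. Nlrp9b averaged 5.24 in the exon 2 mutant, 5.02 in the trap line, 5.44 in the Hprt knockout and 5.0 in wild-type. It is also among the 6 that rose in the exon 2 mutant, where both means lay under the mean filter level. Both genes are among the 6 lower in the trap line against the Hprt knockout. Against the Hprt knockout, the trap line gave 1 higher, Ooep, and 6 lower, among them Nlrp14 (-1.01), Zbed3 (-1.0, and -0.53 with the mean of its probe sets) and Figla, with a median of -0.31. Under cyclic loess scaling that split was 3 higher and 5 lower. Without that scaling 26.6% of all tested genes rose and 41.8% fell in this comparison. The trap line against wild-type gave 5 higher and 0 lower (1 lower at an unadjusted p under 0.05, 0 under cyclic loess scaling). Of all tested genes 26.5% rose and 14.6% fell there. Khdc3 rose by 0.73, Ooep by 0.66 and Nlrp4c, a close relative of Nlrp4f, by 0.56 ± 0.106 (adjusted p = 0.00553). Nlrp4c averaged 7.96 in the exon 2 mutant, 8.78 in the trap line, 8.76 in the Hprt knockout and 8.21 in wild-type.

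The 2-cell-like state is a rare condition of cultured stem cells in which Zscan4 genes and other transcripts of the 2-cell embryo are made. Of 31 genes on its list, Zscan4c left out, 13 had a probe set and 6 were tested. In the exon 2 mutant 2 rose and 3 fell, among them Dppa3, a maternal factor that protects DNA methylation in the zygote (0.83 ± 0.0614, limma adjusted p = 6.52e-05), and Zfp352, a zinc finger gene of the 2-cell embryo (-0.47 ± 0.0546, adjusted p = 0.000413). Arg2, a mitochondrial arginase, fell by 0.62 ± 0.195 (adjusted p = 0.032), with means of 4.69 in the exon 2 mutant and 5.31 in wild-type that both lay under the mean filter level. That call ended without the second exon 2 array, where the difference was -0.37 (adjusted p = 0.152), or without either wild-type array (adjusted p = 0.139 and 0.0694). Dppa3 varied most. It read 8.10 and 8.01 in the exon 2 mutant, 5.97 and 5.92 in the trap line, 8.54 and 8.42 in the Hprt knockout, and 7.20 and 7.24 in wild-type. The trap line was thus the lowest for Dppa3, by 2.53 ± 0.0614 against the Hprt knockout (adjusted p = 9.79e-08) and by 1.28 ± 0.0614 against wild-type (adjusted p = 2.5e-05). Against the Hprt knockout the trap line gave 1 higher and 3 lower, the others being Calcoco2, an autophagy receptor (-1.38), and Usp17la, a deubiquitinase (-0.90). The Hprt knockout against wild-type gave 3 higher (Dppa3 at 1.26, Calcoco2 at 1.19 and Usp17la at 0.49, or 0.23 under cyclic loess scaling) and 1 lower, and in the trap line against wild-type 1 higher (Arg2 at 1.35, with wild-type under the mean filter level) and 3 lower. The list median was -0.29 in the exon 2 mutant, -0.49 in the trap line against the Hprt knockout, 0.49 in the Hprt knockout against wild-type and -0.28 in the trap line against wild-type. Under cyclic loess scaling 1 rose and 3 fell in the exon 2 mutant, 2 rose and 3 fell in the trap line against the Hprt knockout, and 3 rose and 2 fell in the Hprt knockout against wild-type.

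Preimplantation homeobox genes, the class to which Crxos belongs, were tested for 6 of the 10 with a probe set. Of these 1 rose and 1 fell in the exon 2 mutant, 1 rose and 2 fell in the trap line against the Hprt knockout, 2 rose and 1 fell in the Hprt knockout against wild-type, and 2 rose and 0 fell in the trap line against wild-type, where also 0 fell at an unadjusted p under 0.05 and under cyclic loess scaling. Cyclic loess gave 2 higher and 1 lower in the exon 2 mutant. Nanog, a core factor of pluripotency, fell in the exon 2 mutant by 0.32 ± 0.0635 (limma adjusted p = 0.0048), where Pou5f1, another core factor, rose by 0.27 ± 0.0578 (adjusted p = 0.00642). Pou5f1 rose by 0.64 ± 0.0578 in the Hprt knockout relative to wild-type (adjusted p = 4.99e-05) and fell by 0.41 in the trap line against the Hprt knockout. Hesx1, counted among the calls in these 2 comparisons, passed the filter only through the Hprt knockout arrays, where it was high. It averaged 4.97 in the exon 2 mutant, 4.38 in the trap line, 5.68 in the Hprt knockout and 4.52 in wild-type. Nanog rose in the trap line against the Hprt knockout by 0.17 (adjusted p = 0.0487), but lost the call when any 1 of the 4 arrays compared was left out (adjusted p from 0.0526 to 0.22), with the replicate block (0.0663), with only the compared arrays (0.0578) and with no filter (0.0758). Its fall of -0.23 in the Hprt knockout relative to wild-type (adjusted p = 0.0133) was lost without the second Hprt knockout array or either wild-type array (adjusted p = 0.0777, 0.0524 and 0.0532). In the trap line against wild-type Obox6 rose by 0.59 (adjusted p = 0.0332) and Pou5f1 by 0.23 (adjusted p = 0.0188). Obox6 lost its call without either trap array (adjusted p = 0.0998 and 0.128), without the second wild-type array (0.30, adjusted p = 0.0796), with the replicate block (0.0518) and with only the compared arrays (0.0558). Pou5f1 lost its call there without either trap array (0.0981 and 0.059) or the first wild-type array (0.106).

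Regulators of 2-cell-like genes, chiefly DNA methylation and chromatin silencing factors, were all bright enough to test, 29 in number. In the exon 2 mutant 23 rose and 0 fell by limma, also at an unadjusted p under 0.05, with a median of 0.30, which is 0.27 above that of all genes. Under cyclic loess scaling 17 rose and 2 fell. Tet1, which oxidises methylated cytosine, rose by 1.19 ± 0.0775 (limma adjusted p = 4.08e-05), Mga, a partner of the repressor complex PRC1.6, by 1.11 ± 0.106 (adjusted p = 0.000176), or 0.51 with the mean of its probe sets, and Uhrf1 by 0.88 ± 0.0471 (adjusted p = 2.12e-05). Uhrf1, the RNA of the PRAMEL7 target, read 12.65 and 12.62 in the exon 2 mutant, 11.74 and 11.72 in the trap line, 12.26 and 12.30 in the Hprt knockout, and 11.77 and 11.75 in wild-type. The exon 2 mutant, with the lowest Pramel7, had the highest Uhrf1. Between the trap line and wild-type, where Pramel7 differed by -1.54, Uhrf1 differed by -0.03 and did not pass the test (adjusted p = 0.66). The arrays read RNA, while PRAMEL7 is known to act on UHRF1 protein, which they do not measure. A link between Pramel7 and Uhrf1 was therefore not tested. In the Hprt knockout against wild-type 24 regulators rose and 1, Tet2, fell, led by the de novo methyltransferases Dnmt3a (2.70 ± 0.0569, adjusted p = 4.03e-08) and Dnmt3b (1.49 ± 0.0567, adjusted p = 7.11e-07) and by Chaf1b, a histone chaperone subunit (1.05 ± 0.0697, adjusted p = 1.09e-05, and 0.61 with the mean of its probe sets). Of the regulators 22 fell and 4 rose in the trap line against the Hprt knockout, with Dnmt3a at -2.60, Dnmt3l, a cofactor of these enzymes, at -1.59 and Dnmt3b at -1.19. The trap line against wild-type gave 10 higher and 2 lower, with Dnmt3l at -1.10 ± 0.0496 (adjusted p = 2.05e-05) and Tbx3 at 0.78 ± 0.0578 (adjusted p = 0.000116), or 0.43 with the mean of its probe sets.

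Genes of the naive state and of LIF-STAT3 signalling, the pathway known to induce Pramel7, were tested for 20 of 20 listed. In the exon 2 mutant 13 rose and 4 fell, with a median 0.34 above that of all genes. Prdm14, a regulator that holds the naive state, rose by 1.30 ± 0.08 (limma adjusted p = 3.31e-05), Klf2 by 1.17 ± 0.059 (adjusted p = 1.77e-05) and Nr0b1, an orphan nuclear receptor, by 0.85 ± 0.0486 (adjusted p = 2.53e-05). Stat3 averaged 10.32 in the exon 2 mutant and 10.40 in wild-type and did not pass the test (adjusted p = 0.17). Socs3, a feedback inhibitor of STAT3, fell by 0.26 ± 0.0684 (adjusted p = 0.0157). Other genes of the list went either way. Pim1 rose by 0.70 (adjusted p = 8.56e-05), Klf4 by 0.29 and Tfcp2l1 by 0.26, while Pim3 fell by 0.35 and Il6st by 0.19. These genes were named after their values were seen, and the activity of STAT3 was not tested. In the trap line against the Hprt knockout 11 rose and 4 fell. Il6st, the shared LIF receptor subunit gp130, rose by 1.45 ± 0.0645 (adjusted p = 1.82e-06), Tfcp2l1, a naive-state factor downstream of STAT3, by 1.14 ± 0.0515 (adjusted p = 1.94e-06), or 0.46 with the mean of its probe sets, and Stat3 by 0.81 ± 0.0485 (adjusted p = 8e-06), and Fgf4 fell by 1.18 ± 0.0511 (adjusted p = 1.58e-06). The Hprt knockout against wild-type gave 8 higher and 7 lower, among them Fgf4 (1.98), Il6st (-1.82), Prdm14 (1.43) and Stat3 (-0.85). Under cyclic loess scaling this split was 6 higher and 12 lower. Il6st is also made by fibroblasts and moved with the feeder markers, whose part in its change was not tested. Stat3, too, was lowest in the Hprt knockout, with 9.56 there, 10.37 in the trap line, 10.32 in the exon 2 mutant and 10.40 in wild-type. The part of the feeder signal in the Stat3 differences was not tested either. Of the same genes 11 rose and 2 fell in the trap line against wild-type, led by Prdm14 (1.55), Klf2 (1.16) and Klf4 (0.81), and 11 rose and 4 fell under cyclic loess scaling. Tbx3, which is on this list and the last, read 10.66 and 10.77 in the exon 2 mutant, 10.73 and 10.74 in the trap line, 9.96 and 9.93 in the Hprt knockout, and 9.92 and 9.99 in wild-type. Like Crxos, it was higher in both Gtf2i-mutated lines than in the other lines. Tbx3 was named above for its correlation with Crxos on these same arrays, so this likeness is not a separate result.

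**Figure D4:**
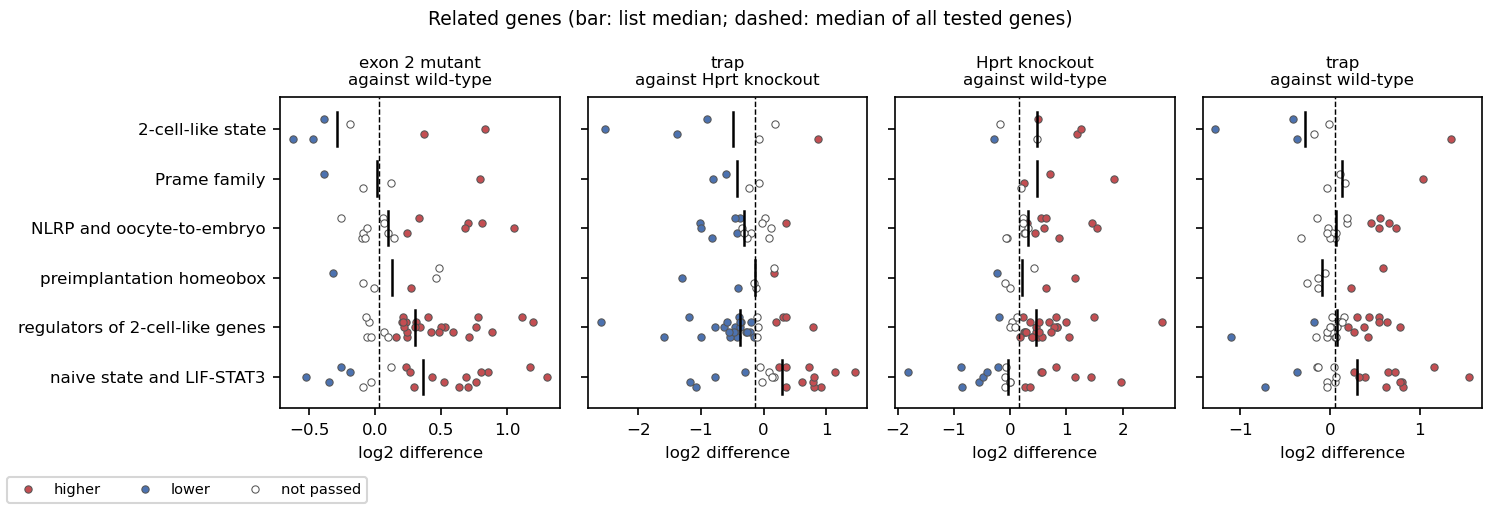
Difference in log2 intensity (horizontal axis) of each tested gene of the 6 lists in the 4 comparisons. Red points rose and blue points fell at a limma adjusted p under 0.05, white points did not pass, black bars are list medians and dashed lines the median of all tested genes. Regulators of 2-cell-like genes lie mostly to the right in the exon 2 mutant (23 rose, 0 fell) and in the Hprt knockout (24 rose, 1 fell). They lie mostly to the left in the trap line against the Hprt knockout (4 rose, 22 fell). Under cyclic loess scaling, not drawn, 17 rose and 2 fell in each of the first 2, and 4 rose and 17 fell in the last.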

How the data were processed

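RNA of 8 mouse embryonic stem cell samples was measured on Affymetrix arrays. The deposited values are log2 normalized intensities of 45101 probe sets, which the authors made with RMA, per the submitters' notes on processing. This method corrects background, normalizes arrays by quantiles and summarises probes, which hides a shift of most genes. Its version and the genome build are not given in the sources used here. The number of arrays limits the precision.

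The genes and lists were chosen with earlier results of these data known. Leaving out 64 controls, 34945 probe sets had 1 symbol in the platform annotation, 932 had several and 9160 had none. Of those with 1 symbol 34741 matched by Entrez ID, and 0 symbols were updated. Each gene was represented by its brightest probe set and tested if above the 40th percentile on at least 2 arrays. Columns had medians of 5.96 to 6.02, and arrays of a group correlated at 0.9966 to 0.998.

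A limma 3.58.1 model (R 4.3.3) of 4 group means over 8 arrays, with 4 residual degrees of freedom (6.86 moderated), gave two-sided p-values adjusted by Benjamini-Hochberg over all tested genes. An exact permutation of 2 against 2 arrays cannot go below p = 0.333. The fit was tested on simulated data. Named were the 5 genes with Gtf2i, Hprt and Crx, up to 3 genes per list and comparison with the largest difference past the threshold and without overlap, genes behind counts of 5 or fewer, and the 3 best correlated genes. Stat3, Socs3, Pim1, Pim3 and some values of Uhrf1, Tbx3, Nlrp4c, Klf4, Tfcp2l1 and Il6st were added after their values were seen. Alternatives were cyclic loess scaling, no filter, the mean of probe sets, only the compared arrays, a replicate block, each array left out and, added after seeing the data, scaling to stem cell markers. Promoter windows came from RefSeq on GRCm38.p6.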

Additional observations from a re-analysis of the deposited data

Results flagged for a closer look

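The exon 2 mutant against wild-type and the trap line against the Hprt knockout are both comparisons of a Gtf2i mutation with its absence, and 3 of the 4 measured genes differed in opposite directions in them on every array. Pramel6 differed by -1.56 in the exon 2 mutant and by 1.34 in the trap line. Pramel7 differed by -2.13 in the exon 2 mutant and by 0.39 in the trap line. Nlrp4f differed by 0.53 in the exon 2 mutant and by -0.46 in the trap line. The difference between the 2 comparisons was not tested, since the genes were chosen on these arrays. Against wild-type in place of the Hprt knockout, the trap line gave 0.45 for Pramel6, -1.54 for Pramel7 and 2.28 for Nlrp4f, so Pramel7 and Nlrp4f have the same sign in both lines there. Those comparisons share the wild-type arrays.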

How the results depend on the processing

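The median difference of the 4 measured genes kept its sign under every alternative run. With the mean of probe sets it was -0.33 in the exon 2 mutant against wild-type, 0.55 in the trap line against the Hprt knockout, -0.33 in the Hprt knockout against wild-type and 0.61 in the trap line against wild-type. Under cyclic loess scaling it was 0.90 in the trap line against the Hprt knockout and -0.70 in the Hprt knockout against wild-type. Relative to the stem cell markers, a scaling added after seeing the data, it was -0.86, 0.87, -0.86 and 0.48 in the 4 comparisons in the order above. Leaving out each array in turn it ranged over -0.60 to -0.42, 0.68 to 0.81, -0.54 to -0.35 and 0.69 to 0.87. The Crxos difference between the Hprt knockout and wild-type changed sign without the second Hprt knockout array (0.06) or the second wild-type array (0.09), with -0.10 to 0.09 over all arrays left out, and Pramel12 did there under cyclic loess (-0.01). The cause of these moves was not tested. Counts of called genes over the 6 lists were 54, 56, 58 and 36 and stayed within 1.5 times of that under all alternatives, with 45 to 49, 51 to 54, 54 to 60 and 30 to 35 when an array was left out. With the replicate number as a block they were 54, 55, 59 and 33. The labels number the arrays in each group, and deviations of same-numbered arrays correlated at -0.2752 to 0.1746. Whether the same number marks a shared batch is not given in the labels and was not tested. Of the values of single related genes under alternatives, 636 kept sign and call, 23 lost the call and 1 changed sign. Signal near the filter level limits the second probe set of Crxos and, of the listed genes with a probe set, 28 that were not tested.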

Other observations

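Zscan4c, a zinc finger gene of the 2-cell embryo, shared its only probe set with several Zscan4 relatives, and the signal of that probe set was assigned to none of them. It read 8.75 and 8.67 in the exon 2 mutant, 8.70 and 8.78 in the trap line, 9.21 and 9.13 in the Hprt knockout, and 9.25 and 9.18 in wild-type. Both Gtf2i-mutated lines lay below the other lines on this probe set, and the arrays of the 2 pairs did not overlap. Non-overlap was the usual state of a gene in single comparisons. It held for 77.2% of tested genes in the exon 2 mutant against wild-type (34.4% lower). In the trap line against the Hprt knockout it held for 85.2% (52.7% lower). The share of genes that split the lines in the same 2 pairs was not counted.

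Trophoblast and primitive endoderm markers also differed between the lines. Of 15 primitive endoderm markers 0 rose and 13 fell by limma in the exon 2 mutant against wild-type, also at an unadjusted p under 0.05, with a median of -0.78, and their summed level was 20834 to 21532 in the exon 2 mutant, 24465 to 24971 in the trap line, 11701 to 11830 in the Hprt knockout and 29341 to 29615 in wild-type. The low sum of the Hprt knockout came from bright matrix genes such as Sparc, which averaged 11.80 in the Hprt knockout and 14.00 in wild-type. Over the lines the endoderm sum followed the order of the feeder marker sum. Both were highest in wild-type, then in the trap line, the exon 2 mutant and the Hprt knockout. The part of the feeder signal in the endoderm sum was not tested. By count, 8 of the 15 markers rose and 5 fell in the Hprt knockout relative to wild-type, and the median was 0.31. Cubn averaged 8.73 in the Hprt knockout and 7.13 in wild-type, and Lama1 9.60 in the Hprt knockout and 8.79 in wild-type. These genes were named after their values were seen. Of 5 tested trophoblast markers 3 rose in the Hprt knockout relative to wild-type, where the median was 0.86. The sum over 9 was 1859 to 1980 in the Hprt knockout and 683 to 697 in wild-type. Most of that rise came from Tfap2c, which averaged 10.45 in the Hprt knockout and 8.18 in wild-type. Eomes averaged 7.0 and 7.03 in that order, and Cdx2, Elf5, Gata3 and Plac1 did not pass the filter. Tfap2c and Eomes were also named after their values were seen.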
